A study of Mus musculus with 4 samples.

Results

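The genes described here are 10 markers of T and natural killer (NK) lymphocytes, measured by RNA sequencing of mouse sciatic nerve. They are Cd3d, Cd3e, Cd3g, Cd4, Cd2, Lck, Trbc1, Trbc2, Nkg7 and Gzma, taken by gene symbol from a table of 50593 genes. They were selected with their values in both groups already known, so their levels are a description and no test is made on them. The study asked whether immune signals are altered in the peripheral nerve of mice that carry a mutant transthyretin (TTR), the protein whose deposits cause hereditary amyloid polyneuropathy. HSF WT mice carry a heterozygous deletion of Hsf-1, the gene of heat shock factor 1, and no transgene. HSF V30M mice carry the same heterozygous deletion, are null for endogenous Ttr and hold a transgene of human TTR with the V30M mutation. The promoter of the transgene is not given in the sources used here. All mice were of strain 129S1/SvImJ and 6 months old, and the labels list 2 mice per group. The n of 4 in the methods is not stated to be per group or in all.

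T cells recognise antigen through a receptor of an alpha and a beta chain, or of a gamma and a delta chain, which signals through the CD3 subunits and the kinase Lck, and helper T cells add the coreceptor Cd4. NK cells lack this receptor and kill through granules that hold perforin and granzymes, which cytotoxic T cells share. In uninjured peripheral nerve such lymphocytes are sparse, and most immune cells there are resident macrophages.

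The table holds 1 value per gene and group, in FPKM (fragments per kilobase of transcript, adjusted for how deeply each library was sequenced), estimated by the authors over the libraries of the group. There is therefore no spread between mice as labelled, and no p-value is given. Ratios below are log2((HSF V30M + 1)/(HSF WT + 1)), a scale that understates differences of low genes, and linear ratios are HSF WT over HSF V30M. The depth had to be read from low values, since 1 fragment adds a fixed step to the FPKM of a gene of given length. Among single-transcript genes, 98.5% of 797 low HSF WT values lay within 2% of 1 fragment of either library, and 98.3% of 175 in HSF V30M lay within 5%. The 2 libraries behind the HSF WT values differed 1.35-fold in depth and those behind HSF V30M 1.18-fold. Of the deeper library in each group, that of HSF V30M exceeded that of HSF WT 1.24-fold. Ttr does not check the labels, since it stood at 6.10 FPKM in the group labelled HSF V30M, where the endogenous gene is null, while its HSF WT value is 0, with 3 fragments equal to 0.197. Reads of the human transgene and of mouse Ttr cannot be told apart in this table, and HSF V30M and HSF WT below mean the groups so labelled. Hsf1 was at 7.94 FPKM in HSF V30M and 15.0 in HSF WT.

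The 2 HSF WT libraries stood apart for most of the T cell receptor transcripts that could be resolved by library, and this bears on every comparison that follows. Where a gene has 1 annotated transcript, its HSF WT value could be written as whole fragments of the deeper and of the shallower library, and 2607 of 2876 such genes within reach (90.6%) had exactly 1 solution. Over these genes 7124 fragments came from the deeper and 5511 from the shallower library, a share of 43.6% for the shallower one. Trbc2 is the only member with 1 annotated transcript, and its value resolved into 2 fragments from the deeper and 20 from the shallower library, a share of 90.9%. Among the 380 genes with at least 10 resolved fragments, immunoglobulin variable segments left aside, the 5th and 95th percentiles of this share were 15.2% and 72.7%, and 6 genes including Trbc2 were at or above 90.9%. The mouse behind each library cannot be named from these data. The other 9 members have several transcripts, so their HSF WT values could not be resolved in this way and are given for both libraries together. HSF V30M values are rounded to 2 decimals, which is too coarse for the same step.

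**Figure D1:**
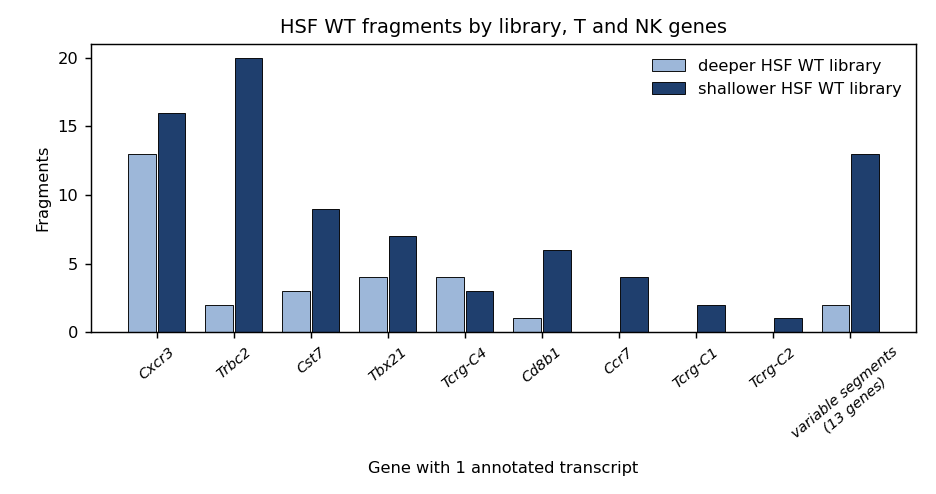
Whole fragments (vertical axis) of the deeper (light bars) and the shallower (dark bars) HSF WT library for T and NK genes with 1 annotated transcript, with the resolved T cell receptor variable segments summed in the last pair. Trbc2 had 2 against 20 fragments, whereas Cxcr3 had 13 against 16 and Tcrg-C4 had 4 against 3.

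Of 8 other T and NK genes with 1 transcript that could be resolved, 7 had more fragments in the shallower library. Cd8b1, a chain of the coreceptor of cytotoxic T cells, had 1 fragment in the deeper and 6 in the shallower library. Ccr7, which guides naive T cells and dendritic cells to lymph nodes, had 0 and 4. Cst7, a protease inhibitor of cytotoxic granules, had 3 and 9, and Tbx21, a transcription factor of type 1 T cells and NK cells, had 4 and 7. Cxcr3, a chemokine receptor of activated T cells, had 13 and 16. Of the 3 gamma chain constant genes, Tcrg-C1 had 0 and 2, Tcrg-C2 had 0 and 1, and Tcrg-C4 had 4 and 3, the one gene of the 8 with more fragments in the deeper library. Over these 8 genes 48 of 73 fragments (65.8%) were from the shallower library. The log2 ratio of HSF V30M was 0.06 for Cd8b1 and 0.27 for Cst7 against the deeper library alone, and -0.52 and -0.59 against the shallower one, so its sign rested on the library. For Cxcr3 and Tbx21 it was negative against either library, at -0.41 and -0.18 against the deeper one. Among the 19 T cell receptor variable segments above 0 in HSF WT, 13 could be resolved, and 13 of their 15 fragments (86.7%) were from the shallower library. The segments with the most HSF WT fragments, Trbv13-1 (about 9.90) and Trbv13-2 (about 4.01), were not among them. The share of the shallower library over all segments is therefore not known. Trav7-3 and Trav7d-3, which are near-identical copies, are each listed at the same value, so these may be 1 molecule or several. Of 4 resolved genes of other blood-derived cells, 2 leaned the opposite way, as Hbb-bt, an adult beta-globin gene, had 20 fragments in the deeper and 1 in the shallower library and Camp, a neutrophil granule gene, had 16 and 1. The other two did not, with 1 and 5 for Tnfrsf17, a receptor of plasma cells, and 8 and 9 for Xcr1, a chemokine receptor of dendritic cells. All these genes were picked out after the values had been seen, and the part of the difference between the 2 libraries in the group comparison could be measured only where a value was resolved.

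The constant region of the T cell receptor beta chain is encoded by Trbc1 (ENSMUSG00000076490, GRCm38 chr6:41538218-41539881, plus strand) and Trbc2 (ENSMUSG00000076498, chr6:41546730-41548352, plus strand), either of which a T cell can join to its rearranged variable segment. Trbc2 was at 0.55 FPKM in HSF V30M and 2.83 in HSF WT, a log2 ratio of -1.30. These values stand for about 5.88 and 21.5 fragments, and the linear ratio was 5.14 with a 95% counting interval from 2.0 to 15.7. Such intervals are exact Poisson intervals that cover counting error alone and not the difference between mice. Taken apart, the deeper HSF WT library gives 0.391 FPKM and the shallower one 5.27. Against the deeper library alone the log2 ratio of Trbc2 turns to 0.16, and against the shallower one alone it is -2.02. The lower Trbc2 level in HSF V30M thus rested on 1 of the 2 HSF WT libraries. Trbc1 was at 0.27 FPKM in HSF V30M and 0.829 in HSF WT, about 3.15 and 6.88 fragments, with a linear ratio of 3.07 whose interval ran from 0.710 to 17.6. Its counting interval in one group overlapped that in the other. Summed over both genes, the constant region stood at 0.82 FPKM in HSF V30M and 3.66 in HSF WT, a ratio of 4.46.

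Trbc1 and Trbc2 are near-identical copies, and the stretches below show where reads can tell them apart. Over the 518 coding bases that both transcripts share, 23 bases differ (95.6% identity), 1 of them in the 375 bases of exon 1 and 22 in the 143 coding bases after it. The longest identical run is 259 bases, up to the difference at position 260. A fragment that lies wholly within such a run could belong to either gene, so the split between the pair is uncertain. Positions are counted from 1 at the first coding base of exon 1. Sequences are those of the spliced GENCODE M21 transcripts on GRCm38, along the plus strand, and capitals mark the differing bases. The first pair covers positions 211 to 310 around the only difference in exon 1 and the second pair positions 376 to 518.
Trbc1 exon 1 stretch: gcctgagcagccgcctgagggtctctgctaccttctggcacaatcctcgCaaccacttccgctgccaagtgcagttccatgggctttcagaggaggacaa
Trbc2 exon 1 stretch: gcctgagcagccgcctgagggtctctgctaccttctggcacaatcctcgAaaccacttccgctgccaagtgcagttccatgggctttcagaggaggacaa
Trbc1 after exon 1: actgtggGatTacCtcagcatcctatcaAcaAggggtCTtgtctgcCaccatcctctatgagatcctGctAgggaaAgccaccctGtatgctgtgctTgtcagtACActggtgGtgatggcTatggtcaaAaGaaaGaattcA
Trbc2 after exon 1: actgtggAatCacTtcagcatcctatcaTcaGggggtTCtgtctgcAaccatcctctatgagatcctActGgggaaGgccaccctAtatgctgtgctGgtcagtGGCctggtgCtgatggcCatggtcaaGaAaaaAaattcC

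The variable segments, which carry the antigen-binding part of each receptor, gave few fragments in either group. Of 22 beta variable segments in the table, 1 was above 0 in HSF V30M and 9 in HSF WT, and their summed FPKM was 0.20 and 8.07. Of 108 alpha segments, 4 were above 0 in HSF V30M and 8 in HSF WT (summed FPKM 2.05 and 3.30). Over all 144 variable segments, 9 were above 0 in HSF V30M, 19 in HSF WT and 3 in both. The highest beta segment was Trbv13-1, listed at 0 in HSF V30M and at 3.84 FPKM in HSF WT. In HSF V30M the highest were Trav9-4 at 1.47 FPKM, about 6.25 fragments and listed at 0 in HSF WT, and Trdv4 at 1.40 FPKM, about 7.44 fragments against 0.266 FPKM in HSF WT. HSF V30M thus held several fragments of 2 segments that were at or near 0 in HSF WT, while its beta segments were almost all at 0.

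The 3 CD3 genes lie side by side on GRCm38 chromosome 9 and had unlike ratios as listed. Cd3g (ENSMUSG00000002033, chr9:44969572-44980431, minus strand), Cd3d (ENSMUSG00000032094, chr9:44981786-44987339, plus strand) and Cd3e (ENSMUSG00000032093, chr9:44998740-45009627, minus strand) span 40.1 kilobases, and each encodes a signalling subunit of the T cell receptor. Cd3e was at 0.32 FPKM in HSF V30M and 2.29 in HSF WT, giving a log2 ratio of -1.32 and a linear ratio of 7.16 (95% counting interval 3.43 to 16.8). On its longest coding transcript this is about 8.77 and 44.6 fragments. Cd3d was at 0.51 FPKM in HSF V30M and 0.486 in HSF WT, about 15.7 and 10.6 fragments, and was the only member that was not lower in HSF V30M, with a log2 ratio of 0.02. Its linear ratio was 0.953, with an interval from 0.394 to 2.21. Cd3g was at 0.26 and 0.364 FPKM, about 4.65 and 4.63 fragments, with a log2 ratio of -0.11 and a linear ratio of 1.40 (0.301 to 6.50). On the longest coding transcripts, the interval of the Cd3e ratio thus lay above that of Cd3d and overlapped that of Cd3g. On the shortest transcripts, Cd3e would have 1.35 fragments in HSF V30M and 6.89 in HSF WT, and Cd3d 0.963 and 0.652. Such counts are too low to tell the 2 ratios apart. Cd3e overlaps the annotated genes Gm48719 and Gm48720, and since no strand setting is stated, reads from such overlaps cannot be told apart. Summed, the 3 genes were at 1.09 FPKM in HSF V30M and 3.14 in HSF WT, a ratio of 2.88.

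Cd3d and Cd3g are transcribed away from each other from starts 1355 bases apart, while Cd3e has a start of its own. The promoter windows are shown because 3 neighbours with 1 shared function differed in their listed ratios, though the counts do not settle that difference. They run from 250 bases before to 50 bases after the start in RefSeq on GRCm38.p6 and are written along the strand of the gene. They are chr9:44981536-44981835 (plus) for Cd3d, chr9:45009562-45009861 (minus) for Cd3e and chr9:44980382-44980681 (minus) for Cd3g. Capitals mark matches, on either strand, to short motifs of lymphocyte transcription factors. The motif searched for the ETS family was AGGAAG. For the RUNX family it was TGTGGT, and for the factors of the Gata family it was AGATAA. A search for TATAAA found no match in the windows of the members. No 2 matches overlap in the windows printed.
Cd3d promoter: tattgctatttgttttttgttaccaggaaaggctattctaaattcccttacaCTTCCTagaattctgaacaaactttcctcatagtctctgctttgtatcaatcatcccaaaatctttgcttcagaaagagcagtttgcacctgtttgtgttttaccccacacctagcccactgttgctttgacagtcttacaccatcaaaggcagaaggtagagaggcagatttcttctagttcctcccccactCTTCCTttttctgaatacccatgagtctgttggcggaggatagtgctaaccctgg
Cd3e promoter: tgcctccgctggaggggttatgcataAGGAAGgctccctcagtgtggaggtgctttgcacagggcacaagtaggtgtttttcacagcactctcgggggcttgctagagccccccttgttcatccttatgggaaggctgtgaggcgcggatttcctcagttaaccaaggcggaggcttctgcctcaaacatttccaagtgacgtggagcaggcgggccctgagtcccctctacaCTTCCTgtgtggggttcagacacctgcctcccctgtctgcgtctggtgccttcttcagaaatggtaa
Cd3g promoter: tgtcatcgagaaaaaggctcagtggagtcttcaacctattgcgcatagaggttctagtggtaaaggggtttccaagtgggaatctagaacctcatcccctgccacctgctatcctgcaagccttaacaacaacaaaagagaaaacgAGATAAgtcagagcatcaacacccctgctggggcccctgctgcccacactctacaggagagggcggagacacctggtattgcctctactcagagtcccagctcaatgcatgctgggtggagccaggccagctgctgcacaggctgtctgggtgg
Cd3d and Cd3e each hold the ETS motif 2 times, at positions -198 and -5 from the start in Cd3d and at -224 and -17 in Cd3e. Cd3g holds the Gata motif once, at -104. Among 32851 windows of the same length, 35.4% hold the ETS motif, 16.8% the RUNX motif, 11.2% the Gata motif and 13.6% the letters TATAAA.

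Cd4 and Lck work together, as Lck, a Src-family kinase bound to the tail of Cd4, phosphorylates CD3 when the receptor meets antigen. Cd4 (ENSMUSG00000023274, GRCm38 chr6:124864692-124888221, minus strand) had the most negative ratio of the members. It was at 0.52 FPKM in HSF V30M and 3.88 in HSF WT, a log2 ratio of -1.68 and a linear ratio of 7.46 (5.11 to 11.2). On its longest coding transcript of 3108 bases this is about 32.8 and 174 fragments, but on the shortest of its 5 transcripts, of 273 bases, the HSF WT value would be 4.43. Lck (ENSMUSG00000000409, chr4:129548344-129573641, minus strand) was at 0.67 FPKM in HSF V30M and 3.63 in HSF WT, a log2 ratio of -1.47 and a linear ratio of 5.42 (3.57 to 8.47). This is about 28.9 and 111 fragments on its longest coding transcript, and 2.46 and 9.47 on the shortest. Both genes were lower in HSF V30M with counting intervals that did not overlap when read on the longest coding transcript.

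Lck is known for a proximal promoter used in thymocytes and a distal one used in mature T cells too, and its 2 RefSeq windows are shown in the same way. They are chr4:129558323-129558622 and chr4:129573592-129573891, both on the minus strand.
Lck window at 129558323: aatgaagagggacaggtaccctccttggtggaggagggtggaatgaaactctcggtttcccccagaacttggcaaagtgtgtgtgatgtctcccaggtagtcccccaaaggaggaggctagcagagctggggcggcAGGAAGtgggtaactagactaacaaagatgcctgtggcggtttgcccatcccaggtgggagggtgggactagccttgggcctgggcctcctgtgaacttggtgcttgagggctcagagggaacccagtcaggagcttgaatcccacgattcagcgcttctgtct
Lck window at 129573592: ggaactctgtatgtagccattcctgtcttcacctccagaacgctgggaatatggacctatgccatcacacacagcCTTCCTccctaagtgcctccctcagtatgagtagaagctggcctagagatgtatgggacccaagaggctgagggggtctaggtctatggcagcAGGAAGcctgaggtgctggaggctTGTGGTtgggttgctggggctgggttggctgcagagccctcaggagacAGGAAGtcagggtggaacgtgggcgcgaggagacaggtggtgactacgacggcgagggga
The first holds the ETS motif once, at -114 from its start. The second holds it 3 times, at -175, -82 and -10, and the RUNX motif once, at -58. The table gives 1 value for the gene, so the 2 starts cannot be told apart in these data. Of the members, 6 had at least 1 such window, and those of Nkg7 and Gzma are not printed.

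Cd2 (ENSMUSG00000027863, GRCm38 chr3:101275899-101287939, minus strand), an adhesion receptor of T and NK cells that mouse B cells and some myeloid cells also carry, was the highest member in both groups. It was at 1.22 FPKM in HSF V30M and 4.58 in HSF WT, about 25.3 and 67.4 fragments. Its log2 ratio was -1.33 and its linear ratio 3.75 (2.34 to 6.18). Its 3 transcripts differ little in length beside those of Cd4 and Lck, and even the shortest gives 12.2 fragments in HSF V30M and 32.5 in HSF WT.

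The 2 cytotoxic members were near the limit of what these libraries can show. Nkg7 (ENSMUSG00000004612, GRCm38 chr7:43437073-43438249, plus strand), a granule membrane protein of NK and cytotoxic T cells, was at 0.34 FPKM in HSF V30M and 0.598 in HSF WT, about 5.03 and 6.30 fragments. Gzma (ENSMUSG00000023132, chr13:113093825-113100981, minus strand), a granule protease, was at 0.07 and 0.355 FPKM, about 1.21 and 4.36 fragments. Their linear ratios of 1.76 and 5.07 had intervals from 0.459 to 7.17 and from 0.592 to 144. A difference in either gene was not detectable at this depth.

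**Figure D2:**
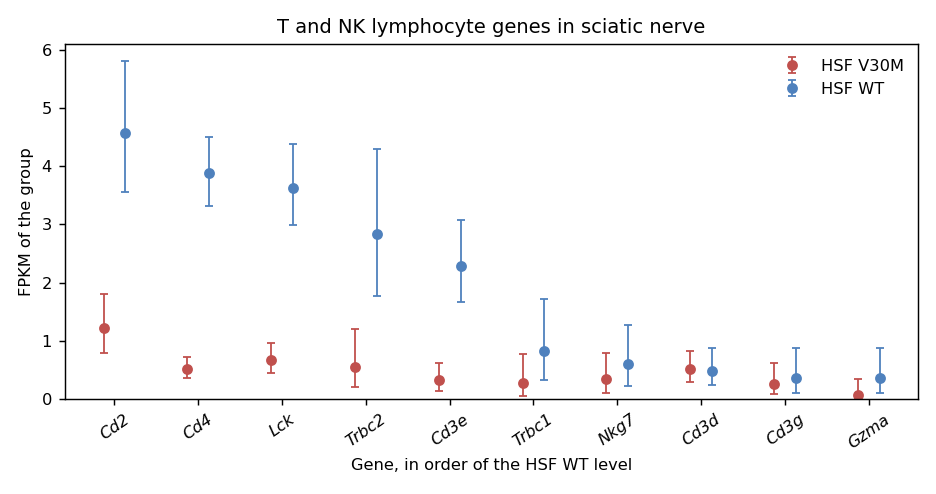
FPKM (vertical axis) of the 10 genes in HSF V30M (red) and HSF WT (blue), in order of the HSF WT level, where bars are 95% exact Poisson intervals for the fragments on the longest coding transcript. Bars of the 2 groups are apart for Cd2, Cd4, Lck, Trbc2 and Cd3e and overlap for the other 5 genes. The share of all genes with bars apart was not computed and the members were chosen on these values, so nothing is read from this count. For Trbc2 the gap rested on 1 of the 2 HSF WT libraries.

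Taken over the list, 9 of 10 members were lower in HSF V30M and 1, Cd3d, was higher by a log2 ratio of 0.02. The levels in HSF WT ran from Cd2, Cd4, Lck, Trbc2 and Cd3e, between 4.58 and 2.29 FPKM, to Trbc1, Nkg7, Cd3d, Cd3g and Gzma, between 0.829 and 0.355. In HSF V30M the order was Cd2, Lck, Trbc2, Cd4, Cd3d, Nkg7, Cd3e, Trbc1, Cd3g and Gzma. In both groups every pair of neighbours in the order had overlapping counting intervals, so the order itself is not settled by the counts. The FPKM of the 10 genes summed to 4.73 for HSF V30M against 19.8 for HSF WT, 4.19-fold higher in HSF WT. In bulk tissue, fewer cells of a type and less RNA per cell cannot be told apart.

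A mean FPKM of at least 1 over the 2 groups was reached by 5 members, Cd3e, Cd4, Cd2, Lck and Trbc2, of which Cd2 alone was above 1 in HSF V30M, so the others passed through their HSF WT level. All 5 were lower in HSF V30M by over 1.5-fold on the FPKM + 1 scale. Over all 15620 genes with that mean, 8.44% were lower by over this fold and 8.22% were higher, and among genes with a mean from 1 to under 3, where the 5 members lie, 12.8% were lower. Since the members were selected on these values, nothing is read from their count. The median log2 ratio was -1.33 over the 5 members and -0.92 over all 10, and 0.00 over all genes with a mean of at least 1.

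**Figure D3:**
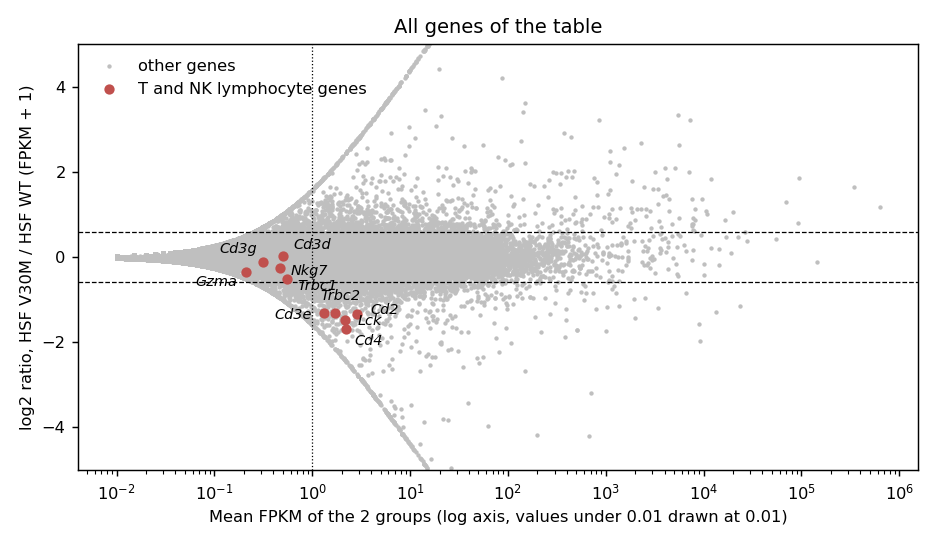
Log2 ratio, HSF V30M against HSF WT, on the FPKM + 1 scale (vertical axis) against the mean FPKM of the 2 groups (horizontal log axis) for the genes of the table (ratios beyond 5 in either direction are not drawn), with the 10 T and NK lymphocyte genes in red, dashed lines at 1.5-fold and a dotted line at a mean of 1. Cd3e, Trbc2, Lck, Cd4 and Cd2 lie under the lower dashed line, at ratios from -1.30 to -1.68, and the other 5 between the dashed lines.

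Other genes of T and NK cells were read from 6 further lists of 74 genes in all. Of these, 53 were lower in HSF V30M, 17 were higher and 4 are at 0 throughout. Of the 27 that reached a mean of 1, 10 were lower by over 1.5-fold (37.0%) and 1 was higher, but their median log2 ratio was -0.07, so most of the list did not follow the members.

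Of 10 further genes of the T cell receptor and its coreceptors, 9 were lower and 1 higher, and 3 had a mean of at least 1. Trac, the constant region of the alpha chain, was at 1.20 FPKM in HSF V30M and 3.43 in HSF WT, a log2 ratio of -1.01 and a linear ratio of 2.86 (1.62 to 5.23). Cd247, the zeta chain that carries the signal of the receptor, was at 1.91 and 2.01 FPKM, a log2 ratio of -0.05. Cd27, a costimulatory receptor of the TNF receptor family, was higher in HSF V30M at 2.97 against 1.87 FPKM, a log2 ratio of 0.47 that stayed within 1.5-fold. Trac was thus lower in HSF V30M as Trbc2 was, but the Trbc2 difference rested on 1 HSF WT library and the interval of Trbc1 ran from 0.710 to 17.6. Cd247 had a linear ratio of 1.05, near that of Cd3d. The interval of Cd3g, from 0.301 to 6.50, held the ratios of both Trac and Cd247, so Cd3g cannot be placed with either. Below a mean of 1, Cd8a was at 0.12 FPKM in HSF V30M and 0.626 in HSF WT. Cd8b1 was at 0.12 and 0.340, and its HSF WT value resolved into 0.0749 FPKM in the deeper and 0.605 in the shallower library.

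Genes of the signalling chain below the receptor gave 13 lower, 2 higher and 1 at 0 out of 16, and 4 of the 7 that reached a mean of 1 were lower by over 1.5-fold. Ubash3a, a phosphatase that restrains receptor signalling, was at 0.24 FPKM in HSF V30M and 1.86 in HSF WT, a log2 ratio of -1.21. Lat, the adaptor phosphorylated by Zap70, was at 0.53 and 1.83 FPKM, a log2 ratio of -0.89. Rasgrp1, an activator of Ras in lymphocytes, was at 0.61 and 1.52 FPKM, a ratio of -0.64. Fyn, a kinase related to Lck that nerve tissue also makes, stood far above the others at 86.6 and 75.2 FPKM. These 3 lower genes were at levels like those of the members, whereas Fyn was not lower.

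Among 12 transcription factors of T and NK cells, 2 of the 8 that reached a mean of 1 were lower by over 1.5-fold and 1 was higher. Ikzf3, a factor of B, T and NK cells, was at 0.82 FPKM in HSF V30M and 4.96 in HSF WT, a log2 ratio of -1.71. Runx3, which specifies cytotoxic T cells, was at 0.64 and 3.29 FPKM, a ratio of -1.39. Lef1, a Wnt-pathway factor that other cells also use, was higher in HSF V30M at 7.65 against 3.54 FPKM, a ratio of 0.93. Ikzf3 and Runx3 thus had ratios near those of Cd4 and Lck.

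Of 15 further cytotoxic and NK cell genes, 8 were lower, 4 higher and 3 at 0 throughout, and only 2 reached a mean of 1. Ccl5, a chemokine of activated T and NK cells that macrophages also make, was at 0.87 FPKM in HSF V30M and 4.59 in HSF WT, a log2 ratio of -1.58 and a linear ratio of 5.27 (2.13 to 15.4). Gzmm, a granzyme of NK cells, was higher in HSF V30M at 1.32 against 0.784 FPKM, a log2 ratio of 0.38. Ncr1, which defines NK cells, is listed at 0 in both groups, as are Ifng and Xcl1. Klrd1, an NK receptor chain, was at 0.66 FPKM in HSF V30M and 0.192 in HSF WT, and Klrb1c at 0.21 and 0.353. Gzmb and Gzmk are listed at 0 in HSF V30M and were at 0.146 and 0.410 FPKM in HSF WT. The defining markers of T cells were therefore above 0 in both groups. Of the 5 genes used to define NK cells, Ncr1 was at 0 and Klrb1c, Klrd1, Nkg7 and Gzma were under 1 FPKM in both groups.

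Among 14 cytokine and homing receptors, 11 were lower, and 2 of the 5 that reached a mean of 1 were lower by over 1.5-fold. Il2rg, the shared chain of several interleukin receptors, was at 2.14 FPKM in HSF V30M and 4.41 in HSF WT, a log2 ratio of -0.79. S1pr1, which endothelium also expresses, was at 13.9 and 10.4 FPKM, and Itgb7 at 10.4 and 8.49. Of 7 gamma-delta T cell genes, 3 were lower and 4 higher, and neither of the 2 with a mean of at least 1, Sox13 at 12.8 against 10.6 FPKM and Zbtb16 at 18.9 against 14.4, passed 1.5-fold. Both are made in many other tissues.

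Markers of other cells moved too, and their part in the values of the T cell genes was not tested. All 10 B cell genes were lower in HSF V30M, 6 of the 6 with a mean of at least 1 by over 1.5-fold, and their summed FPKM was 5.22 against 35.7. Cd79b and Cd79a, the signalling chains of the B cell receptor, were at 0.53 against 7.16 FPKM and at 0.65 against 7.09. Of 5 plasma cell genes, 3 were lower by over 1.5-fold, with Jchain at 2.40 against 46.9 FPKM and Mzb1 at 0.24 against 6.12. The median log2 ratio over the 6 B cell genes was -1.76, beside -1.33 over the 5 members, and the difference was not tested.

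For lymph node stroma, 5 of 6 genes were lower and 1 higher, with sums of 28.3 and 42.1 FPKM, and 1 of the 3 that reached a mean of 1 was lower by over 1.5-fold. Ccl21a was at 25.1 FPKM in HSF V30M and 34.9 in HSF WT, Cxcl13, a chemokine of B cell follicles, was at 1.0 and 4.45, and Madcam1 is listed at 0 in HSF V30M. Pan-leukocyte genes were lower in 6 of 7 cases, with Ptprc, which encodes CD45, at 5.79 against 12.4 FPKM and Cd52 at 9.08 against 25.2. Macrophage genes were lower in 9 of 12, 3 of them by over 1.5-fold, with sums of 465 and 729 FPKM. C1qb was at 58.7 against 139 and C1qc at 44.1 against 102, the largest differences of the list. Csf1r was at 31.2 against 36.0, whereas Adgre1 (7.98 against 7.70), Cd163 (14.4 against 13.0) and Fcgr1 (2.34 against 1.81) were higher in HSF V30M. Of 6 dendritic cell genes 4 were lower, with Itgax at 1.35 against 3.88 FPKM and Cd209a at 2.71 against 4.08. Many but not all leukocyte genes of these lists were thus lower along with the members.

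Most genes of other blood cells and of the nerve went the opposite way. Neutrophil genes were higher in HSF V30M in 6 of 7 cases, with sums of 107 and 32.3 FPKM, and S100a9 was at 59.0 against 13.8 and Ngp at 14.4 against 2.96. The exception, Csf3r, was lower in HSF V30M by over 1.5-fold, at 2.63 against 6.05 FPKM, a log2 ratio of -0.96. All 6 erythroid genes were higher, 5 by over 1.5-fold, with sums of 291 and 101 FPKM, Hba-a1 at 94.0 against 30.8 and Hbb-bt at 17.6 against 2.04. Of 8 Schwann cell genes 6 were higher and 1, S100b at 328 against 201 FPKM, passed 1.5-fold. Sox10, which defines the glial lineage, was at 75.7 against 54.8 FPKM, so the tissue held the markers of nerve in both groups. The lower T cell genes in HSF V30M stood beside higher levels of most neutrophil genes and of the erythroid genes. A shared cause of these differences was not tested.

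**Figure D4:**
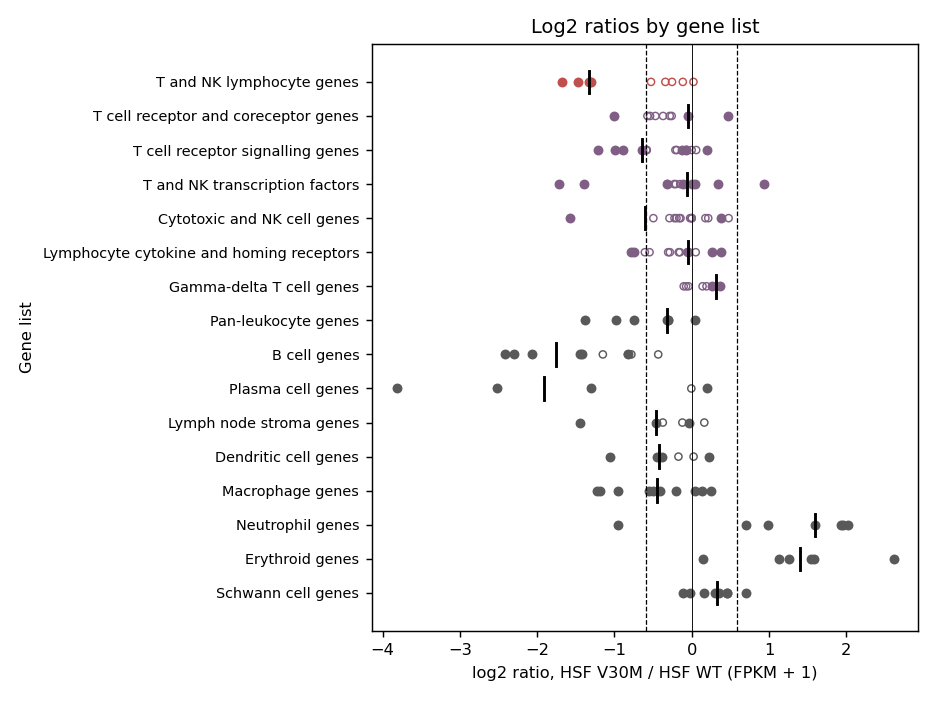
Log2 ratio, HSF V30M against HSF WT, on the FPKM + 1 scale (horizontal axis) for each gene of each list, with filled points for a mean FPKM of at least 1, open points below it, black bars at the median of the filled points and dashed lines at 1.5-fold. The T and NK lymphocyte genes have their bar at -1.33, the B cell genes at -1.76 and the erythroid genes at 1.40.

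Among the 5 protein-coding genes outside the lists whose log2 ratio was nearest to the members' median of -1.33 were H2-Oa, Cd209g, Frem2 and Gm10337. H2-Oa, an MHC class II gene of B cells and thymus, was at 0.60 FPKM in HSF V30M and 3.03 in HSF WT. Cd209g was at 3.65 and 10.6 FPKM, Frem2 at 1.72 and 5.79 and Gm10337 at 3.03 and 9.21. This likeness rests on 2 group values, and 28 genes lay within 0.1 of the median, so it sets none of them apart.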

How the data were processed

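RNA of sciatic nerve was sequenced on Ion Torrent libraries. According to the submitters' processing notes and the methods, the authors aligned reads to GRCm38 (strain C57BL/6J) with STAR and used Cufflinks and Cuffdiff; versions are not given in the sources used here. The deposited table holds 1 FPKM per gene and group, with the authors' fold changes, p-values and q-values, which were not used. HSF V30M values are rounded to 2 decimals. Decimal commas were replaced, and 23 genes with too many alignments were left out.

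The members and gene lists were chosen with earlier results of these data known. Named are all members, in each related list up to 4 and in each other list up to 2 genes of largest absolute log2 ratio (mean FPKM 1 or more), defining markers at 0, and the 5 genes nearest to the members' median; further genes of these lists were named after their values were seen. A few genes that the rule names are not reported here. A pseudocount of 1, a minimum mean of 1 and a 1.5-fold limit were used.

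Fragments were computed from FPKM, the worth of 1 fragment and the transcript length less 199 bases (GENCODE M21), with 95% exact Poisson intervals and a limit of 3 fragments at 0. For the separation into libraries, chosen after the values had been seen, an effective length for fragments of mean 200 and SD 80 bases was corrected by a running median over genes at 1 fragment. A tolerance of 0.01% was used, 95% of single-fragment values lay within 0.00686%, and values at which 0.2 or more accidental solutions were expected were left out. The steps were tested on simulated data. Alternatives were a pseudocount of 0.1, minimum means of 0 and 5, 2 rescalings, a fold over 2 and, added after seeing the data, each HSF WT library alone. The class of means from 1 to under 3 was also added then. Software was scipy 1.17.1, pandas 2.3.3 and numpy 2.4.6 under Python 3.11.15, with plots by matplotlib 3.10.9.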

Additional observations from a re-analysis of the deposited data

How the results depend on the processing

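All 10 members kept their sign under a pseudocount of 0.1 and both rescalings (30 of 30 values), but this outcome was fixed in advance. A pseudocount cannot change a sign. The rescalings were small, with factors of 0.999 and 1.001 by median of ratios and a protein-coding sum 1.016-fold higher in HSF WT. Cd3d, the member nearest to no difference, was 1.05-fold higher in HSF V30M. Past the fold were 5 members under every planned setting that left a member, and with a minimum mean of 5 no member was left. The value of Trbc2 reversed to 0.16 with the deeper HSF WT library alone, so leaving out the shallower one ended its call; for the other members this could not be run. The median of the members was -2.28 with a pseudocount of 0.1 and -0.92 with no minimum. Genes past the fold were 616 lower and 621 higher with a fold over 2, and 646 and 732 with a minimum mean of 5. Related genes past the fold were 5 lower and 0 higher with a fold over 2, 1 lower with a minimum mean of 5, and 3 higher with a pseudocount of 0.1. No paired analysis was possible because each group is a single estimate, and values resolved by library in HSF WT carry no replicate number. Depth limits Cd3g, Trbc1, Nkg7 and Gzma, each with under 10 fragments in both groups on the longest coding transcript.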
